A study of Mus musculus with 24 samples.

Results

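The 10 genes described here carry, buffer, expel or sense calcium in epithelial cells: the channels Trpv6, Trpv5 and Cacna1d, the cytosolic carriers S100g and Calb1, the plasma membrane pumps Atp2b1, Atp2b2 and Atp2b4, the exchanger Slc8a1 and the receptor Casr. They were picked by name, as known parts of the transcellular route of calcium absorption, out of 25410 gene symbols in the tables. Earlier results of these data were known when the genes were picked. Shares of all genes printed beside their counts are thus a description and no independent test. The entries of a gene were summed. RNA was sequenced from the duodenum of Cyp27b1 null males, which lack the enzyme that makes the hormone 1,25-dihydroxyvitamin D3 (1,25D). All 4 groups carried this deletion and were weaned at 3 weeks onto food deficient in vitamin D. The normal diet supplied 0.47% calcium with 0.3% phosphorus, and the rescue diet 2% calcium, 1.25% phosphorus and 20% lactose. At 8 weeks the mice were injected with vehicle or with 2 ng of 1,25D per g of body weight, and the duodenum was taken 6 h later. The groups, named by diet and injection, had 6 libraries each. The labels do not tie libraries to single animals, and their number of injected mice differs from the number of libraries, so each p-value speaks of the spread among libraries, which may in part be technical. No wild type mouse is analysed here.

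Absorption of calcium through the enterocyte is taught as a route of 3 steps. Calcium enters from the gut lumen through a channel in the brush border, crosses the cytosol bound to a carrier protein, and leaves across the basolateral membrane through a pump or an exchanger. The hormone 1,25D acts through the vitamin D receptor, a transcription factor that binds DNA with the retinoid X receptor, often at pairs of short half-sites, and the duodenum is a main site of this regulated route.

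Values are RPKM, read numbers divided by the length of the feature and by the size of the library, so levels can be set side by side between genes. Low RPKM values fall on a ladder whose rungs are 1 read apart, and from its spacing the libraries were estimated to hold 14200000 to 39300000 reads. Cyp24a1, the enzyme that breaks down 1,25D, had means of 1.08 and 724 RPKM without and with 1,25D on the normal diet and of 0.284 and 473 RPKM on the rescue diet, while Cyp27b1 did not exceed 0.452 RPKM in any library. All 12 enterocyte markers were found, and their summed level ranged from 1850 to 11000 RPKM over the libraries. Rescue 1,25D replicate 5 stood apart within its group: it had the lowest Cyp24a1, 92.1 RPKM, the lowest summed enterocyte markers, 1850 RPKM, and the highest summed smooth muscle markers, 559 RPKM. Normal vehicle replicate 1 had the highest summed smooth muscle markers of all libraries, 726 RPKM. Because whole tissue was sequenced, fewer cells of a type and less RNA per cell cannot be told apart.

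The stretches of 250 bases before the annotated start are shown for the 3 genes that rose with 1,25D and for Trpv5, the nearest relative of Trpv6, which did not pass the test. They were taken from RefSeq (mouse build GRCm38.p6), which had an entry for 9 of the 10 genes, while the authors' values rest on build mm9. Each reads 5′ to 3′ on the strand of the gene and ends at the base before the start. Capitals mark half-sites, searched on both strands as the spelling AGGTCA together with its variants, spelled AGTTCA as well as GGGTCA and also GGTTCA, and the TATA box letters TATAAA, searched on the strand of the gene.

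Trpv6 (chr6:41636406-41636655, minus strand): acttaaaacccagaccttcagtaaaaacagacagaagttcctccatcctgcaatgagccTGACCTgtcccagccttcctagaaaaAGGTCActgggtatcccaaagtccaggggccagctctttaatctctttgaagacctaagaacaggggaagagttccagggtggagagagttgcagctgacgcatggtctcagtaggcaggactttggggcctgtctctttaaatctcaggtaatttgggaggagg
Trpv5 (chr6:41680724-41680973, minus strand): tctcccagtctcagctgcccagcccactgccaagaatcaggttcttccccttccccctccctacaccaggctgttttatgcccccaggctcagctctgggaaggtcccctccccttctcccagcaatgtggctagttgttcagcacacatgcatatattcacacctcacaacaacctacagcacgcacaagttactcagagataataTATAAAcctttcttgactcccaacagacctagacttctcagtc
S100g (chrX:162964600-162964849, minus strand): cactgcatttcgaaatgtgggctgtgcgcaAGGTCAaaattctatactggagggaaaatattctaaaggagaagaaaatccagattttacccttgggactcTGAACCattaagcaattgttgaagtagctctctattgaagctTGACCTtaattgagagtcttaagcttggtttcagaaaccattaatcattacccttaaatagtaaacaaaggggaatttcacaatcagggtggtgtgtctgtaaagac
Atp2b1 (chr10:98914392-98914641, plus strand): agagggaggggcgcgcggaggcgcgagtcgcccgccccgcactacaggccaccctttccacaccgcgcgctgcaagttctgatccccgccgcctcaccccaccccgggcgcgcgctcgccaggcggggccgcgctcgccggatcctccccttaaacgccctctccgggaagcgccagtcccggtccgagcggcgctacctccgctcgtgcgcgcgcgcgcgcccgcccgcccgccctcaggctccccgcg

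The Trpv6 window held AGGTCA at 2 places, starting 191 bases before the start on the opposite strand (printed as TGACCT) and 165 bases before it on the gene's strand. The S100g window held AGGTCA at 220 bases before the start and, on the opposite strand, at 107 bases, and GGTTCA on the opposite strand at 149 bases. The Atp2b1 window and the Trpv5 window held none of the 4 half-sites, and the Trpv5 window held TATAAA at 43 bases before the start. The bases after the annotated start were found in a transcript of the gene for Trpv6, S100g and Atp2b1, but not for Trpv5. The Trpv5 start, and so its window, is less sure. Among 32851 promoter windows of this length, 14% held AGGTCA, 38.6% held at least 1 of the 4 half-sites and 7.59% held TATAAA. A pair of half-sites on 1 strand with 3 bases between them was in no window of the 9 genes and in 0.0396% of all windows. Among the 4 windows shown, that of Atp2b1, the first of its 2 entries, lay farthest from the median in composition: 78.4% of its bases were G or C, with 43 CpG, against 38.4% and 2 CpG for S100g, 49.6% and 1 CpG for Trpv6, and a median of 52.4% and 6 CpG over all windows. The other Atp2b1 window had 80.8% G or C, and 1 of the 2 windows of Cacna1d had 86.4%. These matches are a description of the letters alone.

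**Figure D1:**
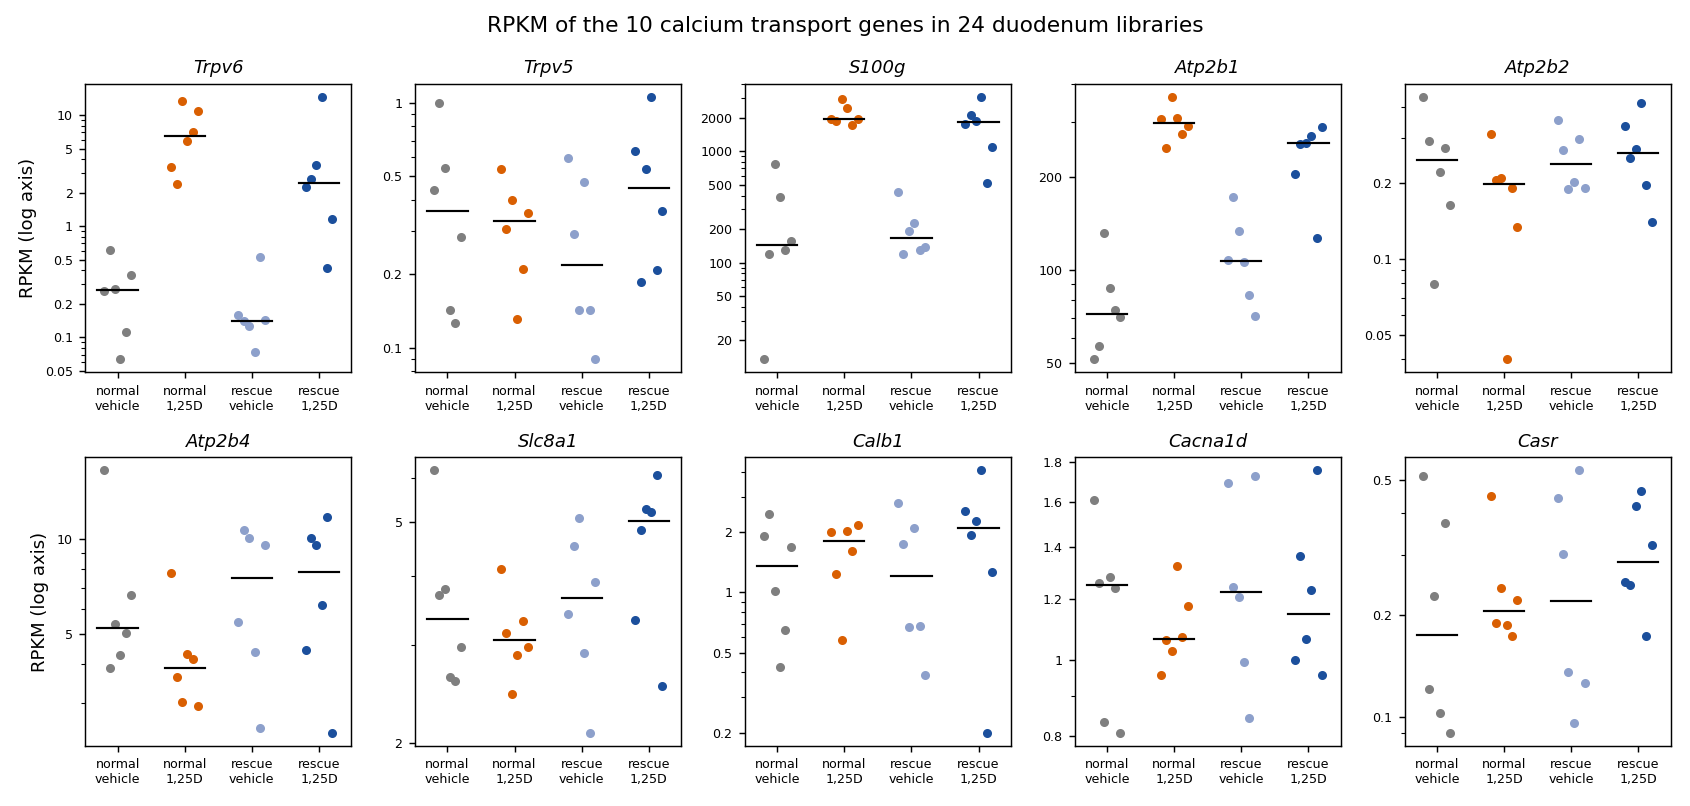
RPKM (log axis, a separate scale for each gene) of the 10 calcium transport genes in the 6 libraries of each group, by diet and injection, with a line at the group's median. Trpv6, S100g and Atp2b1 sit higher in the 1,25D groups, while the 1,25D and vehicle libraries of the other 7 genes overlap on both diets.

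The first question was which steps of the route responded to 1,25D when calcium supply was normal. Of the 10 genes, 8 passed the filter on low values (6 libraries or more at 0.5 RPKM or above). 3 of these 8 rose and 0 fell: 1 channel, Trpv6, 1 carrier, S100g, and 1 pump, Atp2b1. Under vehicle, Trpv6 reached 0.5 RPKM only in normal replicate 2 (0.612) and rescue replicate 5 (0.529), so it passed the filter through the 1,25D libraries. Atp2b2 and Casr, also low under vehicle, did not pass, so counts out of these 8 lean toward genes that rose. A gene was called at an adjusted p under 0.05 over 20006 genes, and 1.78% of all genes tested were called higher and 0.055% lower in this comparison. The median log2 fold change was 0.09 over the 8 genes and 0.05 over all genes.

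Trpv6, the brush border channel, ran from 0.064 to 0.612 RPKM with a median of 0.266 in normal vehicle, and from 2.42 to 13.4 RPKM with a median of 6.46 in normal 1,25D. The groups did not overlap: the lowest treated library lay above the highest vehicle library. How many of all genes show no such overlap, on either diet, was not counted. The channel is a gene of few reads without the hormone. Its level in normal vehicle rested on 4 to 42 reads per library, with a median of 16.5, against 206 to 866 reads with a median of 361 in normal 1,25D. The fitted rise was 8.74-fold (log2 fold change 3.13, SE 0.45, 95% interval 2.20 to 4.05, limma adjusted p = 0.00023), on a scale that adds 0.5 to each RPKM and so understates the change of low genes. The ratio of the mean RPKM, 7.18 ± 4.29 against 0.281 ± 0.196 (SD, n = 6 each), was 25.6.

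S100g, the small calbindin that binds calcium in the enterocyte cytosol, ran from 13.6 to 774 RPKM with a median of 142 in normal vehicle, and from 1730 to 2920 RPKM with a median of 1940 in normal 1,25D. Again the groups did not overlap, and the vehicle libraries were far more spread than the treated ones, with a coefficient of variation of 106% against 21.2%. The vehicle extremes were replicate 1 at 13.6 RPKM and replicate 3 at 774 RPKM. The rise was 14.3-fold (log2 fold change 3.83, SE 0.60, 95% interval 2.60 to 5.07, limma adjusted p = 0.000567). The ratio of the mean RPKM was lower, 8.14, and it was 13.3 without normal vehicle replicate 3. Without normal vehicle replicate 1, the library richest in smooth muscle markers and, at 2560 RPKM, lowest in summed enterocyte markers, the log2 fold change was 3.16. The part that tissue makeup has in the level of that library was not tested.

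Atp2b1, the pump that moves calcium out across the basolateral membrane, ran from 51.5 to 131 RPKM with a median of 72.0 in normal vehicle, and from 248 to 363 RPKM with a median of 300 in normal 1,25D. It changed by the smallest factor of the 3 genes and with the smallest error. The rise was 3.96-fold (log2 fold change 1.99, SE 0.22, 95% interval 1.53 to 2.45, limma adjusted p = 8.65e-06). Its coefficient of variation was 36.8% without and 12.9% with the hormone.

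Some markers of the absorbing cell moved in the same comparison. Of the 12 enterocyte markers, 3 rose on the normal diet, where 1.78% of all genes tested were called higher. They were Lct, the lactase of the brush border, Alpi, intestinal alkaline phosphatase, and Fabp2, a fatty acid binding protein. At a limma unadjusted p under 0.05, which 12% of all genes reached, there were 7 of the 12. The markers moved unevenly, with log2 fold changes of 3.25 for Lct but 0.02 for Anpep, 0.19 for Epcam and 0.24 for Cdx2. The summed level of the 12, 2560 to 5180 RPKM in normal vehicle, was 6120 to 10900 RPKM in normal 1,25D, with no overlap. Summed smooth muscle markers ran from 204 to 726 RPKM in normal vehicle and from 157 to 348 RPKM in normal 1,25D. Summed markers of exocrine pancreas ran from 1600 to 72300 RPKM and from 26.2 to 13200 RPKM. No marker of these lists was at 0 in all libraries of a group. The part of tissue makeup in the rise of Trpv6, S100g and Atp2b1 was not tested.

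The same question was asked on the rescue diet, which supplied more calcium and lactose. The same 3 genes passed the test, 3 of 8 higher and 0 lower, where 0.14% of all genes tested were called higher and 0.005% lower. The median log2 fold change was 0.35 over the 8 genes and 0.06 over all genes. All 3 adjusted p lay close to the threshold.

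Trpv6 ran from 0.074 to 0.529 RPKM with a median of 0.141 in rescue vehicle, and from 0.417 to 14.6 RPKM with a median of 2.47 in rescue 1,25D. The treated libraries spanned a wide range: 5 of 6 lay above all vehicle libraries, replicate 5 was the exception at 0.417 RPKM, and replicate 4 was the highest of all 24 libraries at 14.6 RPKM. The reads behind these values were 6 to 46 per library in rescue vehicle and 34 to 609 in rescue 1,25D. The rise was 4.50-fold (log2 fold change 2.17, SE 0.45, 95% interval 1.24 to 3.09, limma adjusted p = 0.0484). The ratio of the mean RPKM, 4.13 ± 5.27 against 0.196 ± 0.166 (SD, n = 6 each), was 21.1. Leaving out replicate 4 of rescue 1,25D made it 10.3, and leaving out replicate 5 of rescue vehicle made it 32.

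S100g ran from 119 to 426 RPKM with a median of 165 in rescue vehicle, and from 522 to 3080 RPKM with a median of 1810 in rescue 1,25D. Its groups did not overlap on this diet. The rise was 8.21-fold (log2 fold change 3.04, SE 0.60, 95% interval 1.80 to 4.27, limma adjusted p = 0.0336), and the ratio of the mean RPKM was 8.48. Atp2b1 ran from 71.0 to 172 RPKM with a median of 107 in rescue vehicle, and from 127 to 289 RPKM with a median of 257 in rescue 1,25D. For this pump too, replicate 5 was the 1 treated library, at 127 RPKM, inside the range of the vehicle libraries. The rise was 2.10-fold (log2 fold change 1.07, SE 0.22, 95% interval 0.61 to 1.53, limma adjusted p = 0.0484).

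These 3 calls were easily lost. Those of Trpv6 and Atp2b1 were lost even without some single normal diet libraries, which are not part of this comparison. When 1 of the 24 libraries was left out, S100g was called in 15 fits, Trpv6 in 5 and Atp2b1 in 4, while their log2 fold changes stayed between 2.83 and 3.34, 1.71 and 2.52, and 0.95 and 1.23. The calls also depended on the settings. Over the other settings tried, S100g was called in 10 of 10 (limma adjusted p up to 0.0414), Atp2b1 in 5 of 10 (0.00515 to 0.2) and Trpv6 in 4 of 9 (0.00462 to 0.273). The log2 fold change of Trpv6 ran from 1.65 to 3.21 over these settings, the ends being pseudocounts of 1 and 0.1, and from 2.51 to 4.19 on the normal diet. Without replicates 4 and 5 of rescue 1,25D together, a choice made after the values were seen, all 3 were called, with log2 fold changes of 2.03 for Trpv6 (limma adjusted p = 0.00909), 3.17 for S100g (0.0493) and 1.21 for Atp2b1 (0.0229). Summed enterocyte markers, 2640 to 11000 RPKM in rescue vehicle and 1850 to 7560 RPKM in rescue 1,25D, overlapped on this diet, and 0 of the 12 were called by limma, with 3 at an unadjusted p under 0.05, which 4.83% of all genes reached. The low values of replicate 5 in rescue 1,25D came with low Cyp24a1 and with the highest smooth muscle markers of the group, whose part was not tested.

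As the mean over both diets, the response of the 3 genes was larger against its error. Of the same 8 genes, which lean toward a rise through the filter, 3 rose and 0 fell. Of all genes tested, 1.19% were called higher and 0.09% lower. The log2 fold change was 2.65 (SE 0.32, limma adjusted p = 1.2e-05) for Trpv6, 3.44 (SE 0.42, adjusted p = 1.78e-05) for S100g and 1.53 (SE 0.16, adjusted p = 1.05e-06) for Atp2b1. All 3 were called in each of the 24 fits that left out 1 library, both here and on the normal diet.

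**Figure D2:**
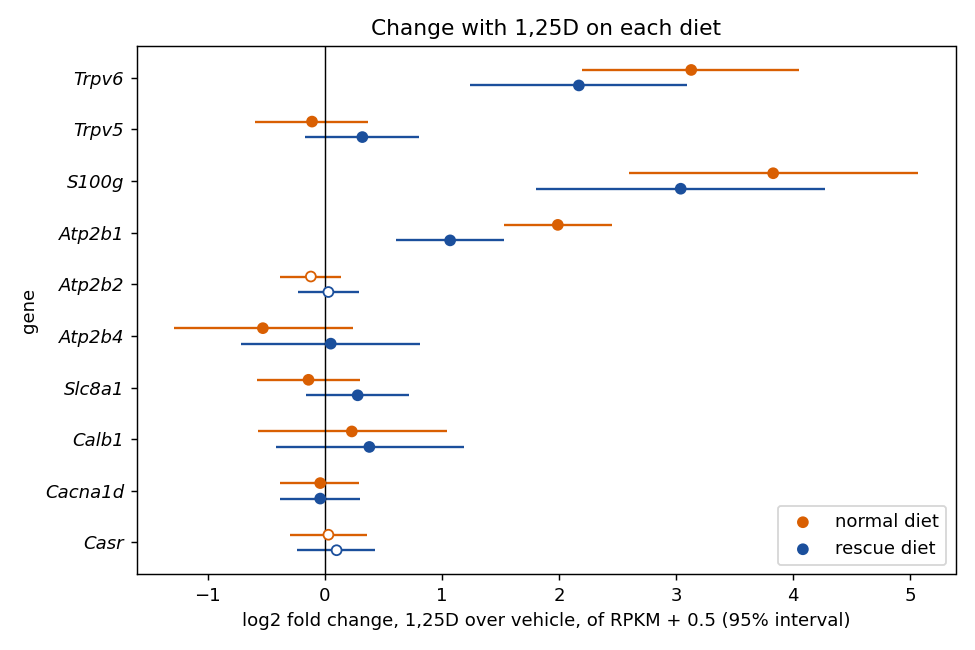
Log2 fold change of 1,25D over vehicle (of RPKM + 0.5, with its 95% interval) for each of the 10 genes on the normal diet and on the rescue diet. Open points are genes under the filter on low values. The intervals of Trpv6, S100g and Atp2b1 lie above 0 on both diets, and those of the other 7 genes span 0 on both.

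The other channels did not follow Trpv6. Trpv5, its close relative, known as the calcium channel of the kidney, had means of 0.421 and 0.322 RPKM without and with 1,25D on the normal diet and of 0.289 and 0.496 RPKM on the rescue diet, with overlapping ranges. It rested on 6 to 52 reads per library, about the number that Trpv6 had in vehicle libraries. Its log2 fold change was -0.11 (95% interval -0.60 to 0.37, limma adjusted p = 0.968) on the normal diet and 0.32 (-0.17 to 0.80, adjusted p = 0.878) on the rescue diet. A rise as large as that of Trpv6 on either diet thus lies outside its intervals on the same scale. Cacna1d, the pore of an L-type channel proposed as a second way in for calcium, kept to 0.807 to 1.76 RPKM over all 24 libraries. Its log2 fold change was -0.04 on both diets (95% intervals -0.38 to 0.29 and -0.38 to 0.30). These values sum 2 entries that went opposite ways on the normal diet. Without and with 1,25D, 1 entry had means of 0.086 and 0.248 RPKM and the other of 1.09 and 0.855 RPKM. Over the other settings the log2 fold change ran from -0.18 to -0.03 on the normal diet and from -0.25 to -0.02 on the rescue diet, with 0 of 10 called on each.

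Calb1, the larger calbindin known from kidney and brain, had means of 1.36 and 1.60 RPKM on the normal diet and of 1.40 and 2.04 RPKM on the rescue diet. Its intervals were the widest of the genes that did not pass, with log2 fold changes of 0.23 (-0.57 to 1.04) on the normal diet and 0.38 (-0.42 to 1.19) on the rescue diet. Within the calbindins the duodenum's level was almost all S100g, at 205 RPKM and above in every group mean.

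Among the ways out, the pump Atp2b1 was the only member called. Atp2b4, another pump of the same family, had means of 6.95 and 4.30 RPKM on the normal diet and of 7.11 and 7.41 RPKM on the rescue diet. Its log2 fold changes were -0.53 (95% interval -1.29 to 0.24, limma adjusted p = 0.698) and 0.05 (-0.72 to 0.81, adjusted p = 0.984). Slc8a1, which trades sodium for calcium across the membrane, had means of 3.65 and 3.15 RPKM on the normal diet and of 3.66 and 4.55 RPKM on the rescue diet, with log2 fold changes of -0.14 (-0.58 to 0.30) and 0.28 (-0.16 to 0.72). Its 2 entries differed by at most 0.24% in a library, so the summed level is close to 2 times that of either entry. The 2 entries of Atp2b2 differed by at most 2.8%.

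Atp2b2 and Casr, the receptor that senses calcium outside the cell, did not pass the filter. Atp2b2 ran from 0.04 to 0.439 RPKM and Casr from 0.09 to 0.534 RPKM over all libraries, and Casr rested on 10 to 72 reads. In a fit without the filter, their log2 fold changes were -0.12 and 0.03 on the normal diet and 0.03 and 0.10 on the rescue diet.

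The order of the levels showed how far the carrier and the pump stand above the rest. In both vehicle groups S100g and Atp2b1 came first and second by mean RPKM, followed by Atp2b4, Slc8a1, Calb1 and Cacna1d. Atp2b1 lay above Atp2b4 in 6 of 6 libraries of every group, and S100g lay above Atp2b1 in 5 of 6 libraries of each vehicle group and in 6 of 6 of each 1,25D group. Calb1 and Cacna1d were not set apart under vehicle, with Calb1 higher in 4 of 6 libraries on the normal diet and 3 of 6 on the rescue diet. Trpv6 ranked 8 of 10 in normal vehicle and 10 of 10 in rescue vehicle, and it ranked 3 in normal 1,25D and 5 in rescue 1,25D. These ranks use summed entries: with the highest entry of each gene instead, Trpv6 ranked 9 in rescue vehicle, above Atp2b2, and 4 in rescue 1,25D, above Slc8a1, and kept ranks 8 and 3 on the normal diet. In normal 1,25D it lay above its neighbour Atp2b4 in 4 of 6 libraries. S100g made up 73.9% of the summed RPKM of the 10 genes in normal vehicle and 87.1% in normal 1,25D, and 61.8% and 87.2% on the rescue diet.

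Whether the diet itself moved the route was asked under each injection. Under vehicle 0 of 8 genes were called in either direction, where 0% of all genes tested were called. At an unadjusted p under 0.05, which 7.18% of all genes reached, there was 1 gene of the 8: Atp2b1 was 0.52 higher on the log2 scale on the rescue diet (SE 0.22, limma unadjusted p = 0.0275, adjusted p = 0.668), with means of 112 ± 36.4 and 78.5 ± 28.9 RPKM (SD, n = 6 each) and overlapping ranges. Under 1,25D 0 of 8 were called, where 0.01% of all genes tested were called, and again there was 1 gene at an unadjusted p under 0.05, which 8.38% of all genes reached. Trpv6 was 1.12 lower on that scale on the rescue diet, a log2 fold change of -1.12 (SE 0.45, limma unadjusted p = 0.0199, adjusted p = 0.52). As the mean over both injections 0 of 8 were called, where 0% of all genes tested were called, and 0 of 8 had an unadjusted p under 0.05, which 9.5% of all genes reached. For S100g under vehicle the log2 fold change between diets, 0.32 with a 95% interval of -0.91 to 1.56, became -0.35 without normal vehicle replicate 1.

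The difference in response between diets was tested as an interaction. 0 of 8 genes were called, where 0.005% of all genes tested were called, and 1 had an unadjusted p under 0.05, which 6.85% of all genes reached. For Atp2b1 the response was smaller on the rescue diet by a log2 difference of -0.92 (SE 0.32, 95% interval -1.57 to -0.27, limma unadjusted p = 0.00756, adjusted p = 0.417). For Trpv6 the difference was -0.96 (-2.27 to 0.35, adjusted p = 0.904) and for S100g -0.80 (-2.54 to 0.95, adjusted p = 0.961). The S100g value was -0.12 without normal vehicle replicate 1, and its ratios of mean RPKM, 8.14 for the normal diet against 8.48 for the rescue diet, go the other way. None of the 3 responses is shown to differ between diets after adjustment, and the intervals for Trpv6 and S100g allow differences in both directions. Summed enterocyte markers had means of 3770 and 8000 RPKM without and with 1,25D on the normal diet and of 6370 and 4410 RPKM on the rescue diet. For the interaction 0 of the 12 markers were called (lowest limma adjusted p = 0.179, for Fabp1). At an unadjusted p under 0.05 there were 10 of the 12, against 6.85% of all genes tested. The markers come from the same 24 libraries and are not independent of one another. Their part in the values of Atp2b1, Trpv6 and S100g was not tested.

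Within a group, libraries differed in how far the 3 genes were raised, and the 12 correlations between pairs of them, on log2 values over 6 libraries each, were described with exact two-sided permutation tests. 8 of the 12 were positive, with r between -0.39 and 0.91, and 0 of 12 passed after adjustment (lowest adjusted p = 0.106 for Pearson's r), while 3 had an unadjusted p under 0.05. Trpv6 and S100g varied together in rescue 1,25D (r = 0.91, exact permutation p = 0.0181; rho = 0.94, p = 0.0167), and r was 0.89 without the 2 libraries farthest from the median of Trpv6. S100g and Atp2b1 varied together in normal vehicle (r = 0.88, exact permutation p = 0.0222; rho = 0.94, p = 0.0167), with r = 0.82 without 2 libraries. In normal 1,25D the same pair gave r = 0.85 (exact permutation p = 0.0264; rho = 0.89, p = 0.0333), but r = 0.46 without 2 libraries, so that relation rests on them. In the vehicle groups Trpv6 did not follow either gene, with r from -0.39 to -0.19, at 4 to 46 reads per library.

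**Figure D3:**
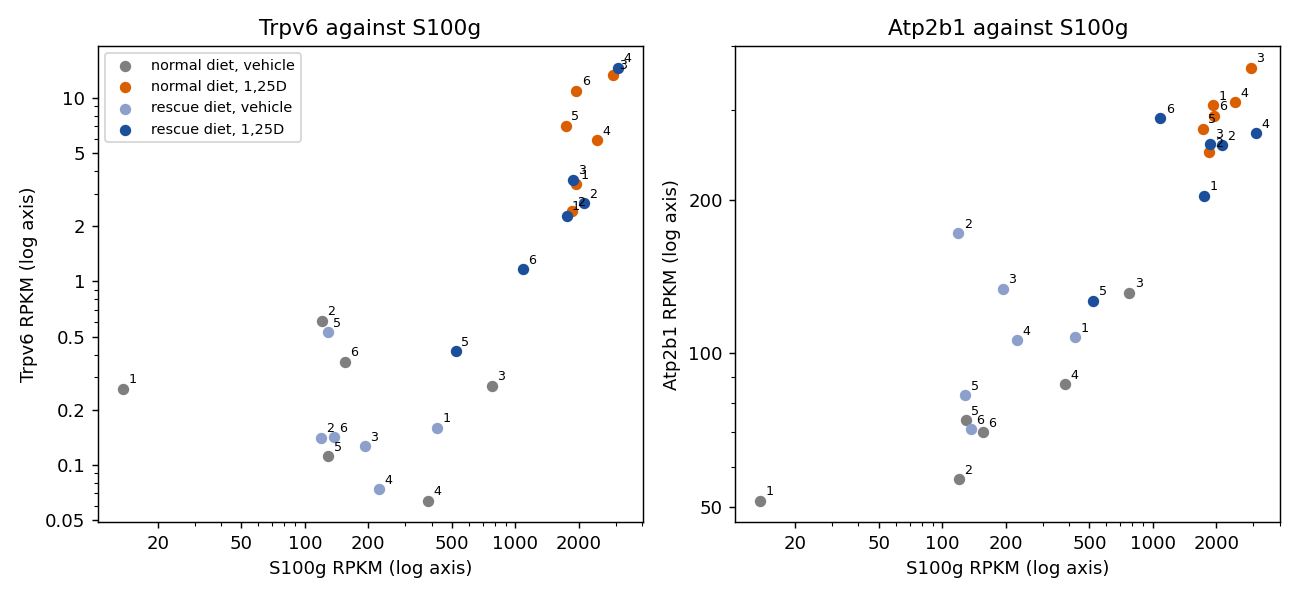
Trpv6 and Atp2b1 against S100g, each in RPKM on log axes, with 1 point per library, coloured by group and numbered by replicate. The 1,25D libraries form an upper right cloud, except for rescue 1,25D replicate 5. At 522 RPKM of S100g, it lies within the range of all vehicle libraries on each axis.

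Atp2b4 and Slc8a1 followed the smooth muscle markers of the libraries, a relation looked for after their values were seen. Over all 24 libraries, which share groups and are given as a description, log2 Atp2b4 correlated with the summed level of 10 smooth muscle markers at r = 0.99 and Slc8a1 at r = 0.90, against -0.20 for Atp2b1, -0.32 for S100g and -0.25 for Trpv6. Within groups of 6, Atp2b4 gave r = 1.00 in both rescue groups (exact permutation p = 0.00139 each, the smallest that 6 libraries allow, adjusted p = 0.0556 over 80 relations; rho = 1.00), 0.98 in normal vehicle and 0.95 in normal 1,25D. Without the 2 libraries farthest from the median, r was 1.00 and 0.99 in the rescue groups and 0.54 and 0.62 in the normal diet groups. Slc8a1 gave r from 0.86 to 0.97 in the 4 groups. Without 2 libraries its r was 0.71 in normal vehicle, 0.83 in rescue vehicle and 0.44 in rescue 1,25D. In normal 1,25D it became -0.67, so the relation there rests on those 2 libraries. 0 of the 80 relations passed after adjustment, a bar that even the smallest possible exact p did not reach here. Of the 80, 12 had an unadjusted exact p under 0.05. Both genes are also known from muscle. With the summed enterocyte markers, Atp2b1 gave r = 0.92 in rescue 1,25D (exact permutation p = 0.00278, adjusted p = 0.0741; rho = 0.94, p = 0.0167), and 0.89 there without 2 libraries. In the other groups r was 0.86 in normal vehicle, 0.81 in rescue vehicle and -0.24 in normal 1,25D. Without 2 libraries these became 0.68, -0.12 and -0.3, so the value in rescue vehicle rests on those libraries.

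**Figure D4:**
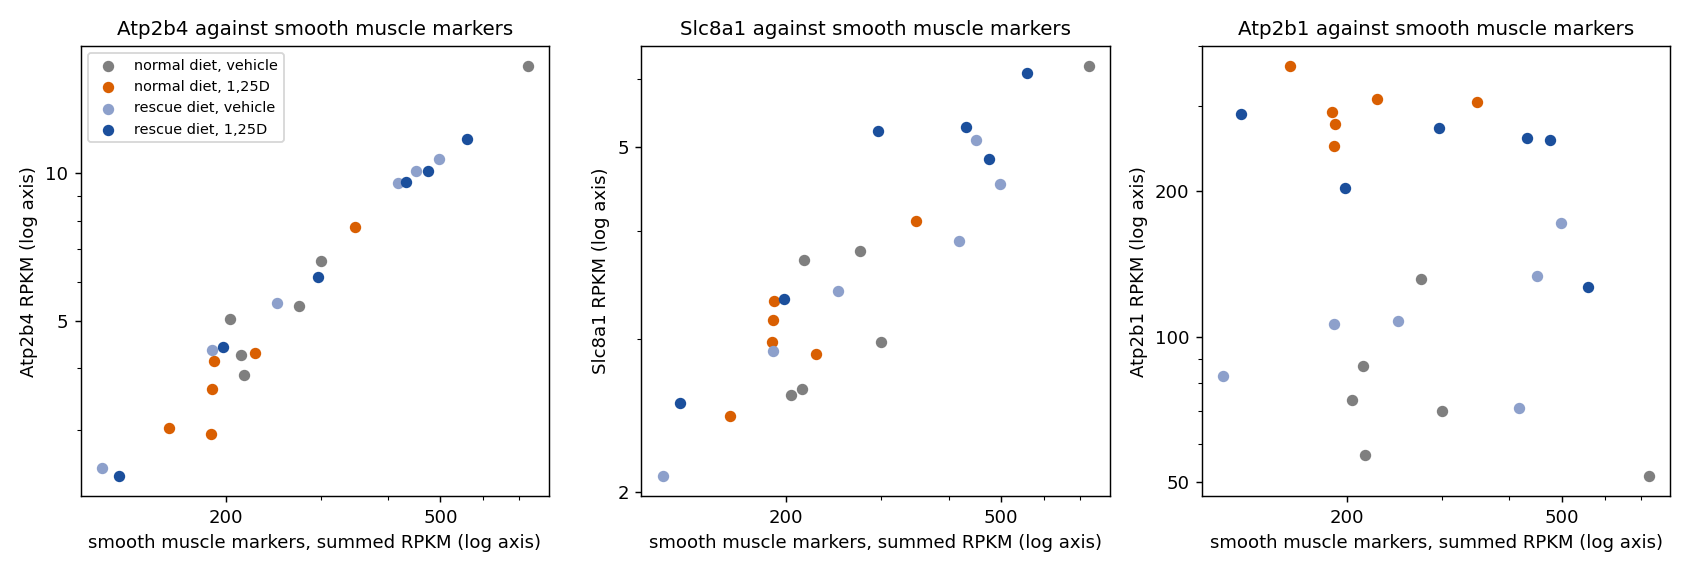
RPKM of Atp2b4, Slc8a1 and Atp2b1 (log axes) against the summed RPKM of 10 smooth muscle markers, with 1 point per library, coloured by group. Atp2b4 and Slc8a1 rise with the markers across all groups (r = 0.99 and 0.90), while Atp2b1 separates by injection, except for rescue 1,25D replicate 5 at 127 RPKM.

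The genes whose log2 level was most like that of each responder over the 24 libraries were taken from 16854 genes, as a description, since all of them share the 4 groups. For Trpv6 they were Mctp2 and Cyp24a1 (r = 0.88 each), the zinc exporter Slc30a1 and the glutamate receptor subunit Grin1 (0.87 each) and the duodenal transcription factor Pdx1 (0.86). S100g came 34th for Trpv6 and Atp2b1 23rd. For S100g they were the metal exporter Slc30a10 and the sugar phosphate carrier Slc37a2 (0.92 each), Atp2b1 and 9630028B13Rik (0.90 each) and Gm2061 (0.89). For Atp2b1 they were Slc30a10 and the transcription factor Maf (0.98 each), Slc37a2 and Gm2061 (0.97 each) and Cytsb (0.94). Slc30a10 itself had means of 14.2 and 115 RPKM on the normal diet and of 19.7 and 87.4 RPKM on the rescue diet.

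Genes of calcium handling were also read from lists chosen by function, some of which hold members of the 10 genes. In these lists the counts stand against 1.78% of all genes tested called higher on the normal diet, 0.14% on the rescue diet and 1.19% over both. Of 9 tested entry channels and carriers, 2 rose on each diet, Trpv6 and S100g, and of 10 genes of calcium extrusion 1 rose on each diet, Atp2b1. Of 13 S100 proteins, 2 rose on the normal diet, S100g and S100a13 (log2 fold change 0.57, SE 0.14, limma adjusted p = 0.0305), and 1 on the rescue diet, S100g. Of 21 partners and regulators of Trpv5 and Trpv6, 2 rose on the normal diet. They were Slc9a3r1, a scaffold of the brush border (log2 fold change 1.2, SE 0.22, limma adjusted p = 0.00318), and Calm2, a calmodulin gene (0.56, SE 0.14, adjusted p = 0.0351). On the rescue diet 0 of 21 were called, with 2 at an unadjusted p under 0.05.

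Against the same shares of all genes, 1.78%, 0.14% and 1.19%, the remaining lists held few calls. Of 16 genes of intracellular calcium stores, 1 rose on the normal diet, the release channel Itpr2 (log2 fold change 0.71, SE 0.14, limma adjusted p = 0.00676), and 0 on the rescue diet, with 1 at an unadjusted p under 0.05. Over both diets Orai1, the pore of store-operated entry, was the 1 called (0.68, SE 0.16, adjusted p = 0.0214). Of 14 genes of the paracellular route, 2 rose on the normal diet: Cldn2, a claudin that forms a cation pore between cells (1.42, SE 0.25, limma adjusted p = 0.00179), and Cgn, a tight junction adaptor (0.46, SE 0.12, adjusted p = 0.0477). On the rescue diet 0 of 14 were called, with 1 at an unadjusted p under 0.05, and over both diets Cldn2 was called (1.25, SE 0.18, adjusted p = 0.000111). Of 12 receptors and signalling genes that sense calcium or its hormones, 0 were called on either diet by limma, with 2 at an unadjusted p under 0.05 on the normal diet, Pth1r and Gna11, and 0 on the rescue diet. Over all genes tested, 12% reached that unadjusted p on the normal diet and 4.83% on the rescue diet. In these lists no gene fell.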

How the data were processed

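The 24 duodenum libraries were made, per the labels' protocols, from total RNA freed of ribosomal RNA, as directional ScriptSeq libraries. The submitters' processing notes name TopHat and mouse build mm9; the program that counted reads is not given in the sources used here. RPKM values were deposited, 1 table for each library per the file headers, with 30795 entries for 25410 symbols. Entries that shared a symbol were summed. Groups were taken from the labels.

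Differences were tested with limma 3.58.1 (R 4.3.3) on log2 values of RPKM plus 0.5, using a trend of variance with level, for the 20006 genes that reached 0.5 RPKM in 6 or more libraries. A joint model held all 24 libraries, leaving 20 residual degrees of freedom. Tests were two-sided, with Benjamini-Hochberg adjustment over all genes tested, and were checked on simulated data. Correlations used exact permutation tests (scipy 1.17.1). Read totals were recovered from 6498 entries: 68.8% to 75.4% of values of up to 6 reads were whole within 0.06 reads, against at most 49% at another depth. Read numbers are estimates that rest on the recovered totals and lengths, and they are given for Trpv6, Trpv5 and Casr, whose lengths could be recovered. The recovered length was 2603 bases for Trpv5, against 3243 for its RefSeq-matched transcript. For Trpv6 it was 2932 against 2923, and for Casr 4539 against 4534. Library pairs correlated at 0.901 to 0.985.

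All 10 genes are named, with the called genes of each list (at most 4, otherwise the 2 with the smallest p) and the 5 genes most like each responder; the text names a part of these. The 10 genes and the lists were chosen with earlier results of these data known. Promoter sequences come from RefSeq. Alternatives covered the pseudocount, filter, scaling, library weights, entries per symbol, replicate block, libraries in the fit and leaving out each library.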

Additional observations from a re-analysis of the deposited data

Results flagged for a closer look

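In 40 groups of 6 values (10 genes in 4 groups), 7 had a highest library farther from the others than a gap test at the 95% level allows. The test used RPKM without logs. Chance gives about 1 in 20, or 2 of 40, only where values have a normal spread, which was not checked, so no excess over chance is claimed. For Trpv6 these were rescue vehicle replicate 5 at 0.529 RPKM (the others lay at 0.074 to 0.16) and rescue 1,25D replicate 4 at 14.64 RPKM (0.417 to 3.59). For S100g it was rescue vehicle replicate 1 at 426.2 RPKM (119 to 226).

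The other 4 flags fell on libraries with the highest summed smooth muscle markers of their group. Normal vehicle replicate 1, with 726 RPKM of these markers, held Atp2b4 at 16.54 RPKM (3.88 to 6.61) and Slc8a1 at 6.202 RPKM (2.59 to 3.79). Normal 1,25D replicate 1, with 348 RPKM of the markers, held Atp2b4 at 7.778 RPKM (2.94 to 4.3). That library also held Casr at 0.449 RPKM (0.174 to 0.24). The part of muscle in these values was not tested.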

How the results depend on the processing

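For 1,25D on the rescue diet, where 3 genes were called, 1 was called with no filter on low values, 1 with the highest entry per symbol and 1 with only the 2 groups compared; the cause was not tested. Leaving out 1 library gave 0 to 3. The count was 0 or 1 in 18 of the 24 such fits, and 2 or 3 without normal vehicle replicate 3 or 6, normal 1,25D replicate 2 or 3, or rescue 1,25D replicate 5 or 6. On the normal diet and over both diets the count stayed at 3 under every alternative that tested Trpv6. With a filter of 1 RPKM in 12 libraries Trpv6 was not tested, and S100g and Atp2b1 stayed called in both comparisons. For the diet and the interaction the count stayed at 0. Of 522 values of single genes under settings other than leaving out 1 library, 512 kept their direction and their side of the threshold or were not called in either case, 10 lost the call, all of them Trpv6 or Atp2b1 on the rescue diet, and 0 reversed. With the replicate block, 3 genes were called on the normal diet, 2 on the rescue diet (Trpv6 had a limma adjusted p = 0.0843) and 3 over both. The labels state no pairing, and residuals of same-numbered libraries correlated at -0.44 to 0.48 (median 0, 13 of 36 pairs over 0.1). Depth limits Trpv6 in vehicle libraries, Trpv5 and Casr, which rest on 4 to 72 reads per library.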
